A study of Ovis aries with 115 samples.

Results

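The cervix of Fur ewes was compared in the follicular phase of a synchronised and of a natural oestrous cycle. The comparison held 18 of the 115 libraries of the series, those labelled as breed FUR and follicular phase, 8 with an induced cycle and 10 with a natural cycle. Fur is a Norwegian sheep breed. Each library is the polyadenylated RNA of post mortem cervical tissue from 1 adult ewe, and the study describes its ewes as having lambed more than once. The synchronised ewes carried an intravaginal sponge that released a progestagen and received equine chorionic gonadotropin when it was removed. The study took their tissue at a set time after sponge removal and examined the ovaries to check the follicular phase. The natural ewes cycled without hormones, and how their follicular phase was timed, on which dates and in which flock is not given in the sources used here, so the cycle type and anything else that differed between the groups cannot be told apart. For reference, 9 Fur ewes in the luteal phase of a synchronised cycle and the follicular ewes of Norwegian White Sheep (NWS), Belclare and Suffolk were used. NWS had 10 synchronised and 10 natural ewes, Belclare 10 and 10, and Suffolk 11 and 8. NWS ewes are from Norway too, whereas Belclare and Suffolk ewes are from Ireland. A difference of Fur from either Irish breed therefore cannot be told apart from a difference between countries.

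In the follicular phase the ovary secretes oestradiol and progesterone is low. The cervix then relaxes, and the epithelium of its folds secretes abundant mucus built on gel-forming mucins, through which sperm must pass. In the luteal phase progesterone from the corpus luteum keeps the canal closed and the mucus scant. Synchronisation replaces the corpus luteum with a progestagen, and the gonadotropin drives follicle growth after the progestagen is withdrawn. The comparison therefore addresses whether the cervix differs between a follicular phase reached with hormones and one reached without them.

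The total count per library was 16436861 to 22668698 in the synchronised and 13410148 to 22068609 in the natural group, and 3 counts corresponded on average to 0.157 and 0.161 CPM, the count scaled to library size. Levels below are CPM on library sizes normalised across the Fur libraries, and log2 fold changes (FC) are synchronised minus natural. Smooth muscle genes were abundant and did not pass the test: ACTG2, the enteric actin of smooth muscle, ranged from 995 to 4754 CPM in the synchronised and from 768 to 4077 CPM in the natural group, with a log2 FC of 0.06 (SE 0.37, adjusted p = 0.935). DES, the muscle intermediate filament desmin, had a log2 FC of 0.05. The summed level of the epithelial list was 1438 to 3495 CPM against 2049 to 3019 CPM, and no member of the smooth muscle or endothelial list was called. COX-1, the mitochondrial oxidase subunit, was at 26.4 to 51.3 CPM in all 18 libraries, and its log2 FC was 0.10 (adjusted p = 0.6).

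One library stood apart from its label. A luteal score was computed for every library as the mean log2 CPM of the 25 genes most clearly higher, minus that of the 25 most clearly lower, in luteal than in synchronised follicular ewes of the other 3 breeds, so that no Fur library took part in the choice. The 9 Fur luteal libraries scored from 0.0775 to 0.439, the 10 natural follicular libraries from -3.20 to -1.30 with a median of -2.47, and 7 of the 8 synchronised follicular libraries from -3.35 to -2.01. The library labelled synchronised replicate 3 scored -0.53, above every other follicular library of Fur and below every luteal one of Fur. In the breeds that chose the genes 4 of 28 luteal libraries scored lower still, NWS replicates 1 and 6 at -1.14 and -0.908 and Suffolk replicates 7 and 2 at -1.39 and -0.593. Its AQP9, an aquaglyceroporin, was at 115 CPM, inside the luteal range of 25.2 to 125 CPM, whereas the other 7 synchronised libraries were at 0.349 to 6.06 CPM. Over all 18 ewes the mean score was -2.70 ± 0.971 (SD, n = 8) in the synchronised and -2.46 ± 0.609 (SD, n = 10) in the natural group, a difference of -0.24 (exact permutation test, two-sided, p = 0.54). Without replicate 3 the difference was -0.55 (exact permutation test, p = 0.0558). Main counts and calls that change without this library are also given without it, but not those of every gene named.

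**Figure D1:**
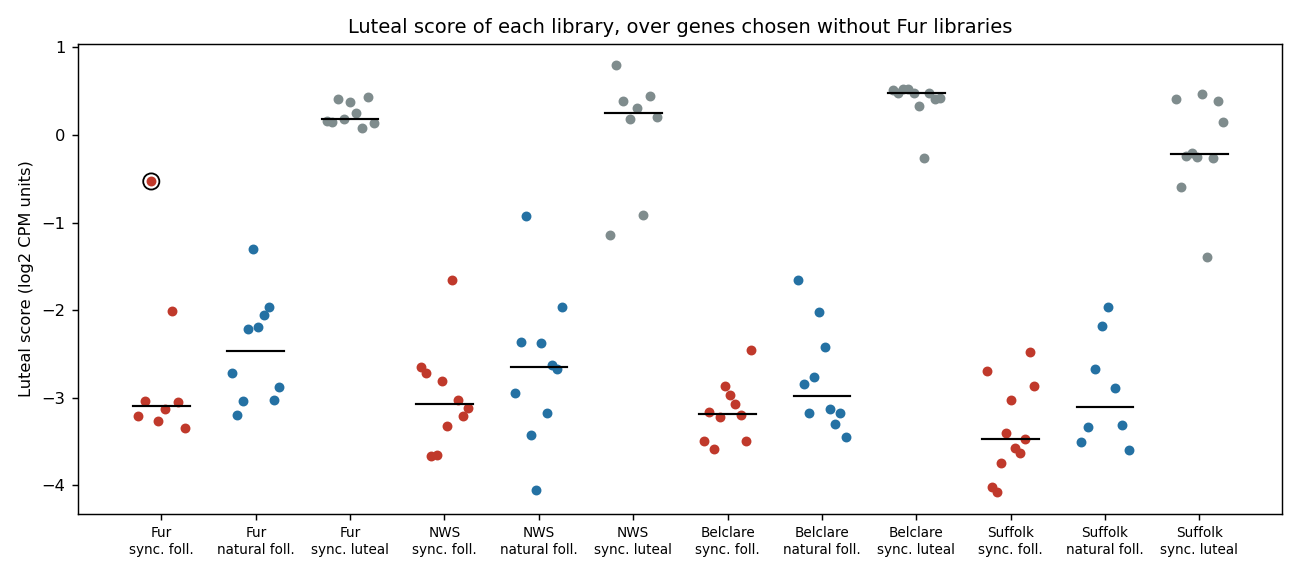
Luteal score of each library in log2 CPM units on the y axis, by breed, cycle type and phase, with a bar at each group's median. The circled Fur library labelled synchronised replicate 3 lies at -0.53, between the other Fur follicular libraries and the Fur luteal libraries at 0.0775 to 0.439.

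Synchronised and natural Fur ewes differed in 726 differentially expressed genes (DEGs), 345 higher and 381 lower in the synchronised group. A DEG had a Benjamini-Hochberg adjusted p under 0.05 by the quasi-likelihood F test of edgeR and an FC above 1.5. Of 14521 genes tested this is 5%, 2.38% higher and 2.62% lower. Most differences were of moderate size, as 190 DEGs, 70 higher and 120 lower, exceeded an FC of 2. When the test was set against an FC of 1.5 itself, 1 gene passed, ENSOARG00000013745, and 390 had an unadjusted p under 0.05. At an adjusted p alone 2708 genes (18.6%) were called, 1578 higher and 1130 lower. Groups did not overlap at all for 149 genes (1.03% of those tested). Of the variance of all tested genes 14.6% lay between the 2 groups, against a median of 5.41% over all 43758 divisions of the ewes (exact permutation test, p = 0.00313). Over the 500 genes of largest variance the share was 11.3%, against a median of 5.16% (exact permutation test, p = 0.0472). Without the library labelled synchronised replicate 3, 811 genes were DEGs, 352 higher and 459 lower, and 619 of the 726 were among them.

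Symbols were at hand for 1283 of the tested genes, almost all from a table of genes lower in these same synchronised Fur ewes than in Suffolk. The named genes are therefore tilted toward lower values in the synchronised group, and their counts are not independent evidence of that direction. Of the named genes 4 were DEGs higher (0.312%) and 98 DEGs lower (7.64%), whereas the 13238 genes without a symbol gave 341 higher and 283 lower. The median log2 FC was -0.174 over named genes and -0.016 over all.

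The 15 named genes of smallest p among those lower in synchronised ewes are given first. HBP1, a transcriptional repressor that delays entry into the cell cycle, was at 51.9, 67.6 and 82.5 CPM (lowest, median and highest) in the synchronised and at 102, 128 and 152 CPM in the natural ewes. The groups did not overlap, and the log2 FC was -0.92 (SE 0.11, adjusted p = 0.00053). KLHL24, an adaptor of a ubiquitin ligase, was at 74.2, 109 and 147 CPM against 162, 236 and 267 CPM, again without overlap (log2 FC -1.06, SE 0.13, adjusted p = 0.00053). CALCOCO1, a receptor for selective autophagy of the endoplasmic reticulum, was at 82.0, 86.9 and 101 CPM against 105, 192 and 277 CPM (log2 FC -1.10, SE 0.18, adjusted p = 0.00168). Its synchronised ewes were nearly alike, whereas among the natural ewes replicates 4 to 8 were at 207 CPM or above and replicates 2, 3 and 9 at 126 CPM or below.

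MXI1, which competes with MYC for its partner MAX, was at 5.61 to 8.97 CPM in synchronised and 7.22 to 19.9 CPM in natural ewes, with a log2 FC of -1.03 (adjusted p = 0.00239). CREBRF, which promotes the breakdown of the stress factor CREB3, was at 5.17 to 11.6 CPM against 10.3 to 26.2 CPM (log2 FC -1.11, adjusted p = 0.00194). YPEL3, a small zinc-binding protein that slows growth, was at 49.3 to 65.1 CPM against 64.4 to 136 CPM (log2 FC -0.80, adjusted p = 0.00196). In each of these 3 genes a single natural ewe reached into the synchronised range. KAT6B, a histone acetyltransferase, had a log2 FC of -0.63 and a range of 51.0 to 64.4 CPM against 61.6 to 114 CPM. ZNF608, a zinc finger protein, had a log2 FC of -0.95, with 17.7 to 26.3 CPM against 26.2 to 64.2 CPM.

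ABHD4, a lipase of N-acyl phospholipids, was at 20.3 to 27.8 CPM in synchronised and 28.6 to 44.6 CPM in natural ewes, without overlap, and its log2 FC of -0.59 lay just past the limit on FC, so that its call was lost with 7 of the 18 ewes when each was left out alone, synchronised replicate 3 among them. DUSP26, a protein phosphatase, had the largest change of these 15 genes with a log2 FC of -1.72 (SE 0.30, adjusted p = 0.00211), from a low level of 1.28 to 2.71 CPM against 2.69 to 11.9 CPM. TCP11L2 had a log2 FC of -1.33, N4BP2L1 of -1.15 and BTBD11 of -0.83, with adjusted p of 0.00114, 0.00237 and 0.00114. In all, 7 of the 8 synchronised ewes lay below every natural ewe in these last 3 genes and in DUSP26.

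CPT1A, the carnitine palmitoyltransferase that commits long-chain fatty acids to mitochondrial oxidation, was at 34.6, 40.1 and 57.2 CPM in synchronised and 50.2, 82.7 and 155 CPM in natural ewes (log2 FC -1.08, SE 0.20, adjusted p = 0.00273). Natural replicates 9 and 10 were the 2 ewes within the synchronised range. It was the 1 DEG of the 10 tested members of the list of fatty acid and fasting genes, close to the 7.64% of named genes that were lower, and the median log2 FC of the list was -0.277 against -0.174 over named genes. SLC22A5, the carnitine transporter, had an adjusted p of 0.0192 but a log2 FC of -0.57, under the FC limit.

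**Figure D2:**
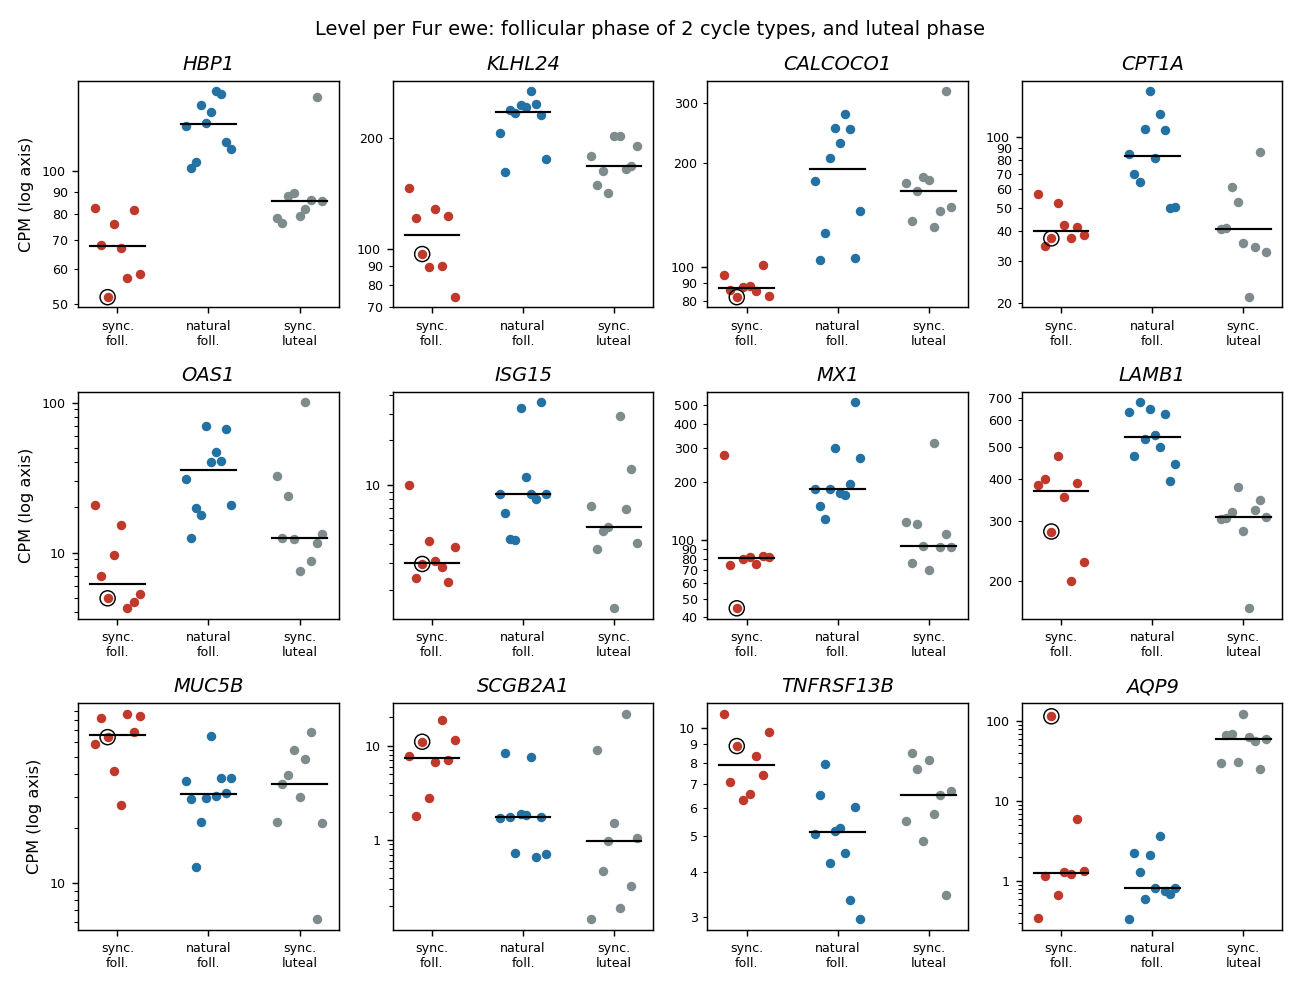
CPM on a log axis for 12 genes, 1 point per Fur ewe, in the synchronised follicular, natural follicular and synchronised luteal groups, with bars at the medians and the library labelled synchronised replicate 3 circled. HBP1, KLHL24 and CALCOCO1 have no overlap between the follicular groups, and AQP9 of the circled ewe at 115 CPM lies among the luteal ewes.

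Genes induced by interferon, the secreted signal of antiviral defence, were the list with the most DEGs. Of 26 tested identifiers 8 were lower in synchronised ewes, where 2.62% of all genes and 7.64% of named genes were, and none was higher. In all, 21 had a negative log2 FC, and the median was -0.353. As with all lists, most symbols come from the table described above. OAS1, an antiviral oligoadenylate synthetase, was at 4.25, 6.13 and 20.8 CPM in synchronised and 12.4, 35.7 and 69.8 CPM in natural ewes (log2 FC -2.05, SE 0.40, adjusted p = 0.00335). OAS2, of the same family, was at 28.6 to 122 CPM against 70.1 to 274 CPM (log2 FC -1.38, adjusted p = 0.0066). Both enzymes were lower, and OAS1 overlapped between the groups through the 2 highest synchronised ewes, replicates 1 and 5.

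ISG15, a ubiquitin-like modifier, was at 2.23, 3.02 and 10.002 CPM in synchronised and 4.26, 8.70 and 35.7 CPM in natural ewes (log2 FC -1.74, SE 0.46, adjusted p = 0.0148). MX1, a GTPase that traps viral particles, was at 44.6, 81.0 and 275 CPM against 130, 184 and 517 CPM (log2 FC -1.21, SE 0.33, adjusted p = 0.0172). Synchronised replicate 1 was the exception in its group for both, at 10.002 and 275 CPM, and natural replicates 5 and 9 were the highest of theirs, at 32.9 and 35.7 CPM for ISG15. DHX58, a sensor of viral RNA, had a log2 FC of -0.75, XAF1, which promotes cell death, of -1.03, and RNF213, a large ubiquitin ligase, of -0.81. ZC3HAV1, which binds viral RNA, had an adjusted p of 0.0057 with a log2 FC of -0.48, under the FC limit. Without natural replicates 5 and 9, a choice made after seeing the data, 6 members were called lower. With each ewe left out in turn 8 to 10 members were called lower.

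Among lysosomal genes 5 of 36 tested identifiers were lower, where 2.62% of all genes and 7.64% of named genes were, and none was higher. In all, 32 were negative, and the median log2 FC was -0.236 against -0.174 over named genes. The 5 identifiers carry 3 symbols, and 4 were called without the library labelled synchronised replicate 3. CTSF, the protease cathepsin F, was at 65.7, 80.9 and 101 CPM against 97.1, 138 and 220 CPM (log2 FC -0.81, adjusted p = 0.00216). MANBA, the lysosomal beta-mannosidase, had a log2 FC of -0.59 (adjusted p = 0.0151), and its call was lost with 8 of the 18 ewes left out singly, that library among them. The other 3 were identifiers that all carry the symbol MAN2B2, an alpha-mannosidase of epididymal type, and reads may have been split or lost among such copies. ENSOARG00000010776, the most abundant of them, was at 0.684 to 9.53 CPM in synchronised and 7.22 to 19.7 CPM in natural ewes (log2 FC -1.31, adjusted p = 0.0151). The library labelled synchronised replicate 3 was the lowest there, and the luteal ewes were at 1.34 to 6.07 CPM. Without that library its log2 FC was -1.14. PSAP, the precursor of the saposins that help degrade sphingolipids, ranged from 883 to 1526 CPM against 1376 to 1687 CPM, a log2 FC of -0.35 with an adjusted p of 0.0166 that did not reach the FC limit.

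**Figure D3:**
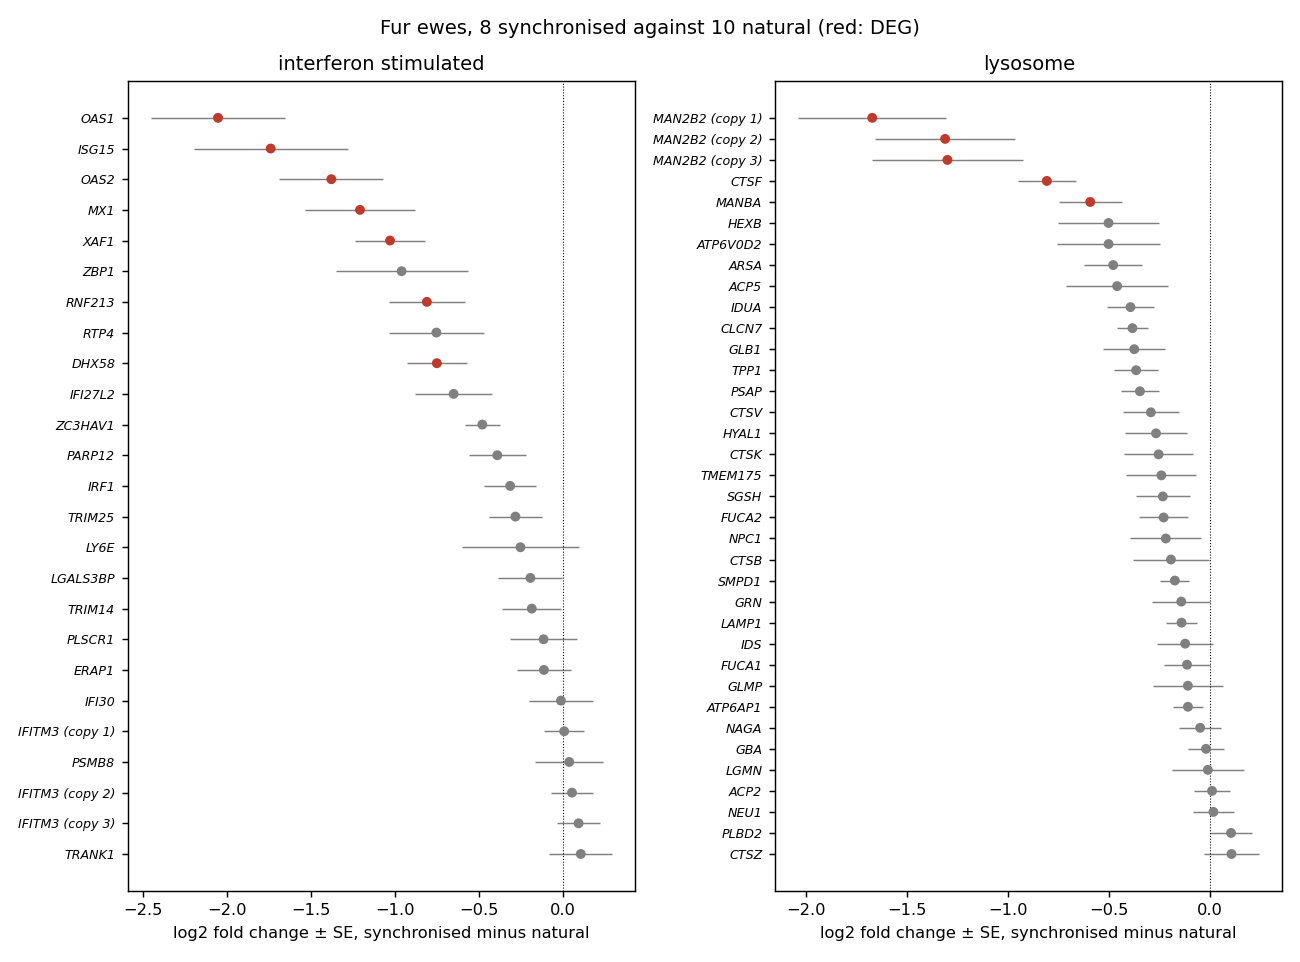
Log2 FC with its SE, synchronised minus natural, for members of the interferon and lysosome lists in Fur, with DEGs in red. OAS1 lies furthest below 0 in the interferon list at -2.05, and in the lysosome list 32 of 36 lie below 0.

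Among genes of mucus and secretion 17 of 21 tested members had a positive log2 FC, with a median of 0.272, and 3 were DEGs higher in synchronised ewes, where 2.38% of all genes and 0.312% of named genes were. Without the library labelled synchronised replicate 3, 1 of the 3 remained, MUC5B, while 16 members were positive and the median was 0.295. MUC5B, the main gel-forming mucin of cervical mucus, was at 26.8, 66.1 and 86.6 CPM in synchronised and 12.2, 30.9 and 65.4 CPM in natural ewes (log2 FC 0.92, SE 0.25, adjusted p = 0.0175). Of the 8 synchronised ewes, 4 lay above every natural ewe, while replicate 5 at 26.8 CPM lay below the natural median. Its call held with any 1 ewe left out. SCGB2A1, a secretoglobin of glandular epithelium, was at 1.80, 7.46 and 18.6 CPM against 0.658, 1.76 and 8.34 CPM (log2 FC 1.61, SE 0.53, adjusted p = 0.0401), and that call was lost with 13 of the 18 ewes when each was left out alone. AQP9 had a log2 FC of 3.53 (SE 1.02, adjusted p = 0.0222) that fell to 0.36 (adjusted p = 0.674) without the library labelled synchronised replicate 3. MUC5AC and MUC1, a gel-forming and a membrane mucin, had log2 FC of 0.70 and 0.41 but did not pass the test (adjusted p = 0.216 and 0.211). GALNT15, an enzyme that starts O-linked sugar chains on mucins, was the 1 member called lower, with a log2 FC of -0.81 and levels of 0.489 to 1.79 CPM against 1.22 to 3.26 CPM.

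The lists of steroid receptors and enzymes and of steroid response genes held 1 call each. Of 11 tested receptors and enzymes 1 was lower, where 2.62% of all genes and 7.64% of named genes were. It was HSD17B6, an oxidoreductase of androgens, with a log2 FC of -1.19 (SE 0.30, adjusted p = 0.012). Its levels were 0.473 to 2.79 CPM against 1.81 to 5.09 CPM. Of 13 tested response genes 1 was higher, where 2.38% of all genes and 0.312% of named genes were. It was SCGB2A1, whose call was lost without synchronised replicate 3. KLF9, a factor induced by progesterone and by glucocorticoids, was at 9.50 to 15.8 CPM against 15.2 to 24.95 CPM, and its log2 FC of -0.57 (adjusted p = 0.00658) was under the FC limit. FKBP5, a co-chaperone induced by the same hormones, was at 44.7 to 122 CPM against 35.5 to 156 CPM and did not pass (log2 FC -0.51, adjusted p = 0.197). ESR2, an oestrogen receptor, had a log2 FC of -1.19 with an adjusted p of 0.116 at levels of 0.63 to 4.50 CPM against 0.655 to 13.1 CPM.

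NR1D2 and NR1D1, repressors of the circadian clock, were lower. NR1D2 was at 20.7 to 33.5 CPM in synchronised and 29.9 to 61.0 CPM in natural ewes (log2 FC -0.73, adjusted p = 0.0037), and NR1D1 at 12.5 to 41.3 CPM against 20.6 to 67.3 CPM (log2 FC -0.94, adjusted p = 0.0172). They were the 2 DEGs of 7 tested members of the list of clock and glucocorticoid genes, where 2.62% of all genes and 7.64% of named genes were lower. For NR1D1 the library labelled synchronised replicate 3 was the highest of its group at 41.3 CPM, and the log2 FC was -1.14 without it. The hour of the day at which tissue was collected is not given in the sources used here.

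Of the matrix list 1 of 33 tested members was called, LAMB1, a laminin chain of basement membranes, at 199, 370 and 470 CPM against 396, 536 and 679 CPM (log2 FC -0.71, SE 0.16, adjusted p = 0.00653). The share lower was 2.62% over all genes and 7.64% over named genes, so the matrix count does not exceed that of the named genes. In signalling through TGF-beta and BMP 2 of 12 were lower, KCP, a secreted regulator of BMP, with a log2 FC of -1.27, and ACVR2B, an activin receptor, with -0.65. KRT1, a keratin of stratified epithelium, had a log2 FC of -1.04 at 0.473 to 6.50 CPM against 4.12 to 13.5 CPM, and GRB7, an adaptor of growth factor receptors, of -0.79, but the first lost its call with 5 and the second with 9 of the 18 ewes left out singly. MXRA8, a surface protein of fibroblasts, had a log2 FC of -0.95 (adjusted p = 0.00476). FGB, a chain of fibrinogen, had a log2 FC of -1.35 (adjusted p = 0.0471), and its call was lost in 13 of the 18 cases. No member of the Wnt, Notch and hedgehog, prostaglandin or mitochondrial lists was a DEG.

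Few immune cell markers were called. Of 22 tested lymphocyte genes 1 was higher, where 2.38% of all genes and 0.312% of named genes were. In the same list 1 was lower, where 2.62% of all genes and 7.64% of named genes were, and 11 had a positive and 11 a negative log2 FC. TNFRSF13B, a receptor of B and plasma cells, was at 6.29, 7.88 and 10.9 CPM in synchronised and 2.95, 5.14 and 7.96 CPM in natural ewes (log2 FC 0.66, SE 0.17, adjusted p = 0.0145). PRKCQ, a kinase of T cell activation, was at 1.71 to 5.11 CPM against 3.79 to 12.03 CPM (log2 FC -0.80, adjusted p = 0.0221). Of 14 myeloid genes the 1 called was AQP9, which also stands in that list and was not called without synchronised replicate 3. In tissue RNA fewer cells of a type and less RNA per cell cannot be told apart.

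**Figure D4:**
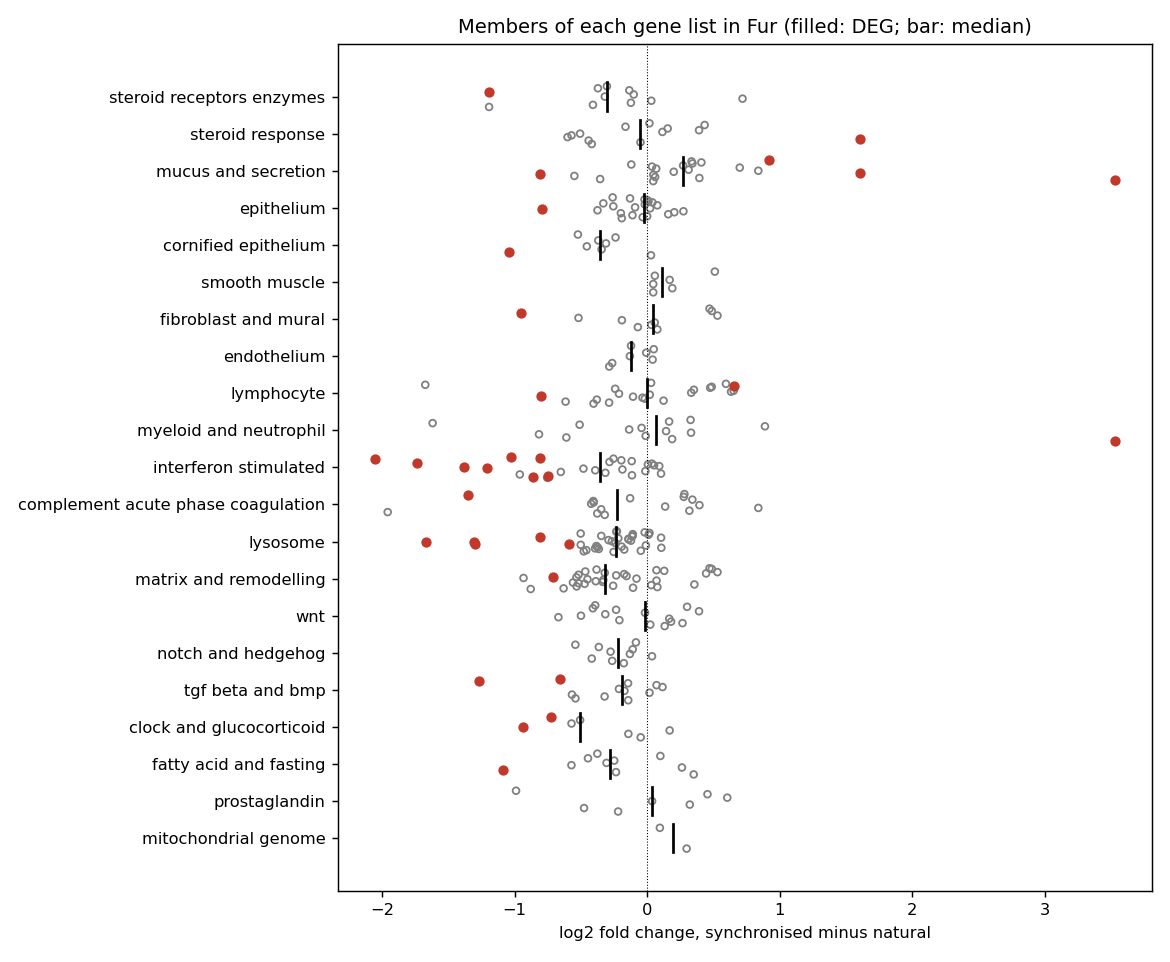
Log2 FC, synchronised minus natural, of the tested members of each gene list in Fur, with DEGs filled and bars at the medians. The median of the mucus list is 0.272 and that of the interferon list -0.353, and AQP9 is the point furthest right at 3.53.

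Among genes without a symbol, ENSOARG00000013745 had the smallest p of those higher in synchronised ewes, at 51.2, 114 and 155 CPM against 20.3, 30.1 and 56.3 CPM (log2 FC 1.69, SE 0.21, adjusted p = 0.00053). ENSOARG00000017168 was at 261 to 509 CPM against 97.3 to 199 CPM without overlap (log2 FC 1.21, SE 0.16, adjusted p = 0.000615). Those of smallest p among the lower genes were ENSOARG00000009659 and ENSOARG00000017129, with log2 FC of -0.61 and -0.63 and no overlap between the groups.

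The DEGs were then read in luteal and follicular ewes of the other 3 breeds, with which the Fur comparison shares no library. Of the 381 genes lower in synchronised Fur ewes, 248 (65.1%) were higher in luteal than in synchronised follicular ewes of those breeds, against 50.1% of all tested genes, and 93 (24.4%) were called higher there, against 10.9%. Of the 345 genes higher in synchronised Fur ewes, 239 (69.3%) were lower in luteal ewes, against 49.9% of all, and 98 (28.4%) were called lower, against 11.1%. Most DEGs thus had, in natural relative to synchronised Fur ewes, the sign of luteal relative to follicular ewes elsewhere, and the part of cycle stage in the Fur difference cannot be told apart from that of cycle type. Without the library labelled synchronised replicate 3, 332 of 459 lower genes (72.3%) were higher in luteal ewes and 272 of 352 higher genes (77.3%) were lower there. Of the lower genes 152 (33.1%) were then called higher in luteal ewes, and of the higher genes 121 (34.4%) were called lower. When the luteal score was put into the fit as a covariate, chosen after seeing the data, 749 genes were DEGs, of which 636 were among the 726. When the library labelled synchronised replicate 3 was also left out, 270 genes were past both limits, 144 higher and 126 lower, with 1 interferon-induced gene lower and 1 mucus gene higher.

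The same contrast within each other breed gave few DEGs. NWS had 2, both lower, CDK3 and ENSOARG00000018936, named after their values were seen, and Belclare and Suffolk had 0 each with edgeR. At an unadjusted p under 0.05 the counts were 1888 in NWS, 280 in Belclare and 1219 in Suffolk, and the Wald test of DESeq2 called 95, 0 and 7. No DEG of Fur was called by edgeR in another breed.

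In NWS, also from Norway, the DEGs of Fur nevertheless had mostly the same sign. Of the 345 higher genes 330 (95.7%) had a positive log2 FC in NWS, where 47.1% of all genes did, and of the 381 lower genes 366 (96.1%) had a negative one, where 52.9% of all did. The median log2 FC of the higher genes was 0.756 in Fur and 0.428 in NWS, and that of the lower genes -0.812 and -0.509. Genes vary together and are not independent replicates, so the counts are a description. Natural NWS replicates 4 and 10 had COX-1 at 38.7 and 33.3 CPM, within the Fur range, whereas the other 8 natural NWS ewes were at 825 to 2590 CPM. Without these 2 libraries the counts were 323 of 345 and 355 of 381. Without the library labelled synchronised replicate 3 of Fur, they were 334 of 352 and 432 of 459 for the DEGs called then. In Belclare 81 of 345 (23.5%) and 133 of 381 (34.9%) had the sign of Fur, with medians of -0.088 and 0.063. Of all genes there 53.8% were positive and 46.2% negative. In Suffolk 73 (21.2%) and 172 (45.1%) had it, with medians of -0.212 and 0.038, where 46% of all genes were positive and 54% negative. These shares lie below those over all genes.

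**Figure D5:**
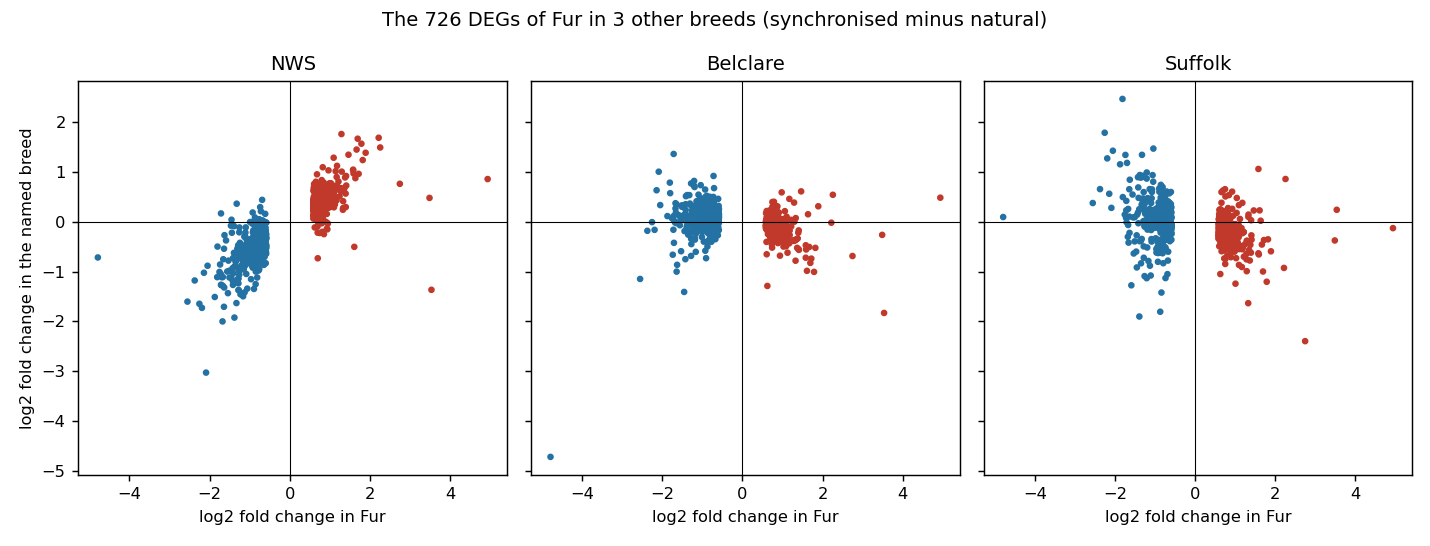
Log2 FC in NWS, Belclare and Suffolk (y axes) against Fur (x axes) for the 726 DEGs of Fur, 1 point per gene, synchronised minus natural, red for genes higher and blue for genes lower in synchronised Fur ewes. In NWS 330 of 345 red points lie above 0 and 366 of 381 blue points below it, and in Suffolk 73 and 172.

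The difference of the cycle effect between Fur and another breed was tested as an interaction over all follicular ewes, so the 3 tests share the Fur libraries. It was called at an adjusted p under 0.05 for 0 genes against NWS (0%), 10 against Belclare (0.0689%) and 488 against Suffolk (3.36%). The unadjusted counts were 645, 2257 and 3022, and DESeq2 called 1, 65 and 668. Of the 488 genes 164 were DEGs of Fur. Without the library labelled synchronised replicate 3 the Suffolk count was 136. ENSOARG00000013745, with a log2 FC of 1.69 in Fur (SE 0.21) and 1.67 in NWS (SE 0.30), had -0.82 in Belclare and -0.997 in Suffolk, and differed from both of the latter, by 2.53 (adjusted p = 0.00252) and 2.70 (adjusted p = 0.00109).

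Interferon-induced genes were among those whose cycle effect differed from Suffolk. OAS1 had a log2 FC of 1.43 in Suffolk, so that Fur differed by -3.48 (SE 0.78, adjusted p = 0.0138). ISG15 had 1.35 in Suffolk and differed by -3.08 (adjusted p = 0.0178), and MX1 had 0.87 and differed by -2.07 (adjusted p = 0.0138). In NWS the same 3 genes had log2 FC of -0.88, -0.86 and -0.88, with no adjusted p under 0.05. Against Belclare the interaction test called none of these 3 genes. There the differences without the library labelled synchronised replicate 3 were -2.3 for OAS1 (adjusted p = 0.246) and -1.02 for ISG15 (adjusted p = 0.489). For MX1 it was -1.15 (adjusted p = 0.31), so the difference was called against Suffolk only. HBP1 had 0.11 in Suffolk and 0.15 in Belclare and differed from Fur by -1.03 (adjusted p = 0.0151) and -1.06 (adjusted p = 0.0391). Without the library labelled synchronised replicate 3 the differences from Suffolk were -3.40 for OAS1, -3.04 for ISG15, -1.98 for MX1 and -1.0 for HBP1, with adjusted p of 0.0347 to 0.0355, whereas that of HBP1 from Belclare was -1.03 and no longer called (adjusted p = 0.0957). For MUC5B the log2 FC was 0.16 in NWS, -0.13 in Belclare and 0.61 in Suffolk, and the difference between Fur and Suffolk was 0.32 (SE 0.73, adjusted p = 0.834).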

How the data were processed

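The authors sequenced stranded polyadenylated RNA libraries. After trimming, read pairs were mapped with STAR (2.6.1b) to Oar_v3.1, and unique pairs were counted with featureCounts (Subread 1.6.3) on Ensembl release 95. They deposited raw counts per gene and ewe for 27054 identifiers. The strand setting of the counting is not given in the sources used here. Symbols came from the study's supplementary tables for 1352 identifiers. Of 115 samples 1, whose labels disagree, was left unassigned. Genes with at least 1 CPM in at least 8 of the 18 libraries were tested with edgeR 4.0.16 in R 4.3.3 (TMM normalisation, quasi-likelihood F test, Benjamini-Hochberg adjustment). SE is the size of the log2 FC divided by the square root of F. The 3 counts set as a floor and all tests cover counting error or the spread between these ewes only. Other breeds were tested over the same genes, and DESeq2 1.42.0 served as an alternative. Scripts were tested on simulated data. A member of the lists is not reported here. Named genes are the 15 symbols of smallest p among DEGs in each direction, or all if fewer, every DEG of 21 gene lists, at most 2 identifiers without a symbol per direction, and 4 library checks. Members and lists were chosen with earlier results of these data known. The luteal score was added after the data were seen, from genes of smallest p with an FC above 2 in a fit with breed as a term. Between libraries of a group the chi-square per degree of freedom was at least 34.3 (73 pairs), so none was counted as a repeat.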

Additional observations from a re-analysis of the deposited data

Results flagged for a closer look

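Of 104 groups of ewes tested for a single library far from the rest, 7 were flagged, where chance flags about 1 in 20. Each was flagged by its gap to the next ewe as a share of the group's range on log2(CPM + 0.1). The luteal scores of both Fur follicular groups were also tested, on their own scale, and were not flagged. That of synchronised replicate 3 fell just short of the limit. In the synchronised group, replicate 1 was far above the others for MX1 (0.657), DHX58 (0.587) and ISG15 (0.580), and the log2 FC of MX1 was -1.63 without it. The library labelled synchronised replicate 3 was far above for AQP9 (0.528). Replicate 4 was far below for GRB7 (0.543) and replicate 6 for KRT1 (0.702). In the natural group replicate 2 was far below for XAF1 (0.522).

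The cycle effect differed between breeds for 10 genes in Belclare and 488 in Suffolk by the interaction test (edgeR, adjusted p under 0.05). Against Belclare, Fur differed on the log2 scale by -1.06 for HBP1, 2.53 for ENSOARG00000013745, 1.6 for ENSOARG00000017168 and 5.39 for AQP9. The AQP9 difference was 2.17 (adjusted p = 0.33) without the library labelled synchronised replicate 3. Against Suffolk, the differences were -1.03 for HBP1, 2.70 for ENSOARG00000013745, 1.42 for ENSOARG00000017168, -1.39 for BTBD11, -1.68 for TCP11L2 and -1.55 for CPT1A. Among interferon-induced genes they were -3.48 for OAS1, -2.31 for OAS2, -1.25 for XAF1, -1.31 for DHX58, -3.08 for ISG15, -2.07 for MX1 and -1.5 for RNF213. The 3 identifiers of MAN2B2 differed by -1.93, -1.73 and -1.77. Without synchronised replicate 3 the count against Suffolk was 136. ENSOARG00000013745 was still called then, at 2.68 (interaction test, adjusted p = 0.0027). Differences from Suffolk without that library are given above for OAS1, ISG15, MX1 and HBP1, and not for the other genes listed here.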

How the results depend on the processing

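The count of 726 DEGs (345 higher, 381 lower) stayed within 1.5 times under another normalisation, both DESeq2 tests and 3 other filters. It was 2708 (1578 and 1130) without the FC limit, 1 (1 and 0) when tested against the FC limit, 219 (139 and 80) with all 8 follicular groups in one fit, where 3432 genes had an unadjusted p under 0.05, and 270 (144 and 126) with the luteal score as a covariate and synchronised replicate 3 left out. The cause of these changes was not tested. With each ewe left out in turn, the count ranged from 539 to 1013, those higher from 255 to 510 and those lower from 267 to 503, the share of variance from 13.2 to 16.8% and the difference of the luteal score from -0.55 to -0.111. Without natural replicate 2 and without synchronised replicate 8 the total was highest and lowest. Ewes with the same number are different animals, the correlations of their deviations ran from -0.21 to 0.267 and exceeded 0.1 in 5 of 8 pairs, not in every pair, and 1 ewe correlated best with its own number, so the numbers were not taken to pair them. With the replicate block 850 genes were DEGs, 575 of them shared, and 6 of the 51 named genes and identifiers lost their call.

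For the other breeds, NWS had 95 DEGs by DESeq2, 0 with the replicate block and 0 without natural replicates 4 and 10, and Suffolk 7 by DESeq2. The difference from NWS was called for 1 gene by DESeq2, that from Belclare for 301 with only both breeds in the fit and 65 by DESeq2, and that from Suffolk for 986 with only both breeds and 129 with the replicate block. Without synchronised replicate 3 the counts were 0, 7 and 136 for NWS, Belclare and Suffolk. Of the 51 named genes and identifiers run under every alternative, 4 were library checks that had no call to lose. No called gene changed sign. The uncalled ACTG2 fell to a log2 FC of -0.18 without synchronised replicate 4, and the uncalled DES to -0.12 without synchronised replicate 3. With all groups in one fit 23 of the 51 lost their call. With the luteal score as a covariate and synchronised replicate 3 left out, 28 did. Genes under 0.161 CPM hold fewer than 3 counts in an average library, so differences among them were not detectable.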

Other observations

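The genes given here were chosen after their values were seen, and like nearly all named DEGs they were lower in synchronised Fur ewes. Besides YPEL3, its relatives YPEL1 (log2 FC -1.13, adjusted p = 0.0056 by edgeR) and YPEL4 (-1.24, adjusted p = 0.00501) were lower. TP53INP1, a target of p53, was at 16.6 to 39.9 CPM in synchronised and 40.2 to 95.9 CPM in natural ewes, without overlap (log2 FC -0.99). CDKN2D, an inhibitor of cyclin-dependent kinases, had a log2 FC of -0.68, BMF, which promotes apoptosis, of -0.92, and KLF11, a repressor of growth, of -1.42. CDK6, a kinase that drives the cell cycle, was lower too, with a log2 FC of -0.77.

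PMEL and GPNMB, related glycoproteins of pigment cells and macrophages, had log2 FC of -2.26 and -1.28. PMEL was at 3.76, 8.63 and 16.6 CPM in synchronised and 8.65, 29.8 and 203 CPM in natural ewes. Single ewes set the extreme values among identifiers without a symbol. ENSOARG00000006959 was at 10528 CPM in the highest synchronised ewe, the library labelled replicate 3, against a synchronised median of 142 CPM and a natural maximum of 101 CPM. ENSOARG00000008117 was at 302 CPM in its highest synchronised ewe, and the luteal range was 41.4 to 772 CPM. ENSOARG00000018032 was at 162 CPM in its highest natural ewe against a natural median of 1.49 CPM.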
